A study of Danio rerio with 4 samples.

Results

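The antioxidant and metal response genes examined here are 9 zebrafish genes, mt2, nqo1, gstp1, gclc, gclm, prdx1, keap1a, nfe2l2a and hmox1a, together with features that carry no zebrafish symbol but a human ortholog name from the same set (NQO1, HMOX1, GCLC, GCLM, GSTP1, TXN, PRDX1, KEAP1 or NFE2L2). They were found in the annotation columns of the authors' deposited table, in which 6 features matched by symbol and 10 without a symbol matched by human ortholog name. A further 2 features, listed there as keap1 and zgc:110343, carry older names of keap1a and prdx1 and were added, giving 18 of the 37176 features of the array. Of the 9 genes, gstp1, nfe2l2a and hmox1a had no feature of that symbol and are represented only through the human names. A GSTP1 feature was matched by accession to gstp1.1, and an HMOX1 feature to hmox1b, the paralog of hmox1a. For the others it is not settled which zebrafish copy they measure.

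Total RNA of whole zebrafish embryos was labelled with Cy3 and read on 4 one-colour arrays. Of these, 2 were from Tg(hsp70-hRASG12V) embryos, described by the series as heterogeneous and called transgenic here, and 2 from wild-type embryos. The titles of the wild-type arrays carry the label ab, and those of the transgenic arrays the label ras. The transgene places a mutant human RAS coding sequence under the hsp70 heat shock promoter, so heat both stresses the embryo and switches the transgene on. All embryos, transgenic and wild type, received 1 h at 37 °C from 24 hours post fertilisation, went back to 28.5 °C and were collected at 30 hours, and each array is described as a pool of 50 embryos. The design text speaks of biological triplicates, whereas 2 arrays per genotype were analysed here. No array of embryos without heat shock was analysed, so every value below comes from heat-shocked embryos. Differences in genetic background, clutch or handling between the genotypes cannot be told apart from the transgene.

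NFE2L2, better known as NRF2, is a transcription factor that switches on antioxidant and detoxification genes. In unstressed cells KEAP1 holds NRF2 and directs its degradation, and oxidants or electrophiles that modify KEAP1 let NRF2 accumulate, pair with a small MAF protein and bind the promoters of genes such as NQO1, GCLC, GCLM and HMOX1. Metallothioneins are small cysteine-rich proteins that bind zinc and copper, and their genes are induced by metals through the factor MTF1 and by several kinds of stress.

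Among these genes, the heat-shocked transgenic embryos had less mt2 and less nqo1 and more of a thioredoxin-like transcript than heat-shocked wild-type embryos. The metallothionein gene mt2 fell by 1.69 ± 0.15 (log2 fold change ± SE, 2 arrays per genotype), which is a 3.22-fold difference, and the features of the quinone reductase gene nqo1 fell by 1.42 ± 0.15 and 1.41 ± 0.14, while the remaining nqo1 feature did not pass the test. The feature with the human name TXN rose by 0.71 ± 0.14, or 1.64-fold. The glutathione synthesis, glutathione transferase, peroxiredoxin, heme oxygenase, keap1a and NFE2L2 features did not pass.

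In all, 1 of the 18 member features was higher and 3 were lower at an adjusted p of 0.05 (limma, Benjamini-Hochberg over all features), and 14 did not pass. Over the whole array 10.3% of features were called higher and 7.28% lower, 17.6% in either direction, against 5.56% and 16.7% of the member features. Median centring turned the array's split of 3830 higher and 2708 lower into 3316 higher and 3630 lower. The 3 lower features belong to 2 genes and the nqo1 features are not independent of each other, so the share of lower members is not set apart from the array. The median log2 fold change was 0.05 over the members and 0.01 over all features. Without either transgenic array 0 of the 37176 features passed in limma (7482 and 7548 had an unadjusted p under 0.05), so every call named here ended, while the values without transgenic replicate 1 and 2 were -1.69 and -1.68 for mt2, -1.50 and -1.34 for the second nqo1 feature and 0.66 and 0.76 for the TXN-ortholog feature.

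**Figure D1:**
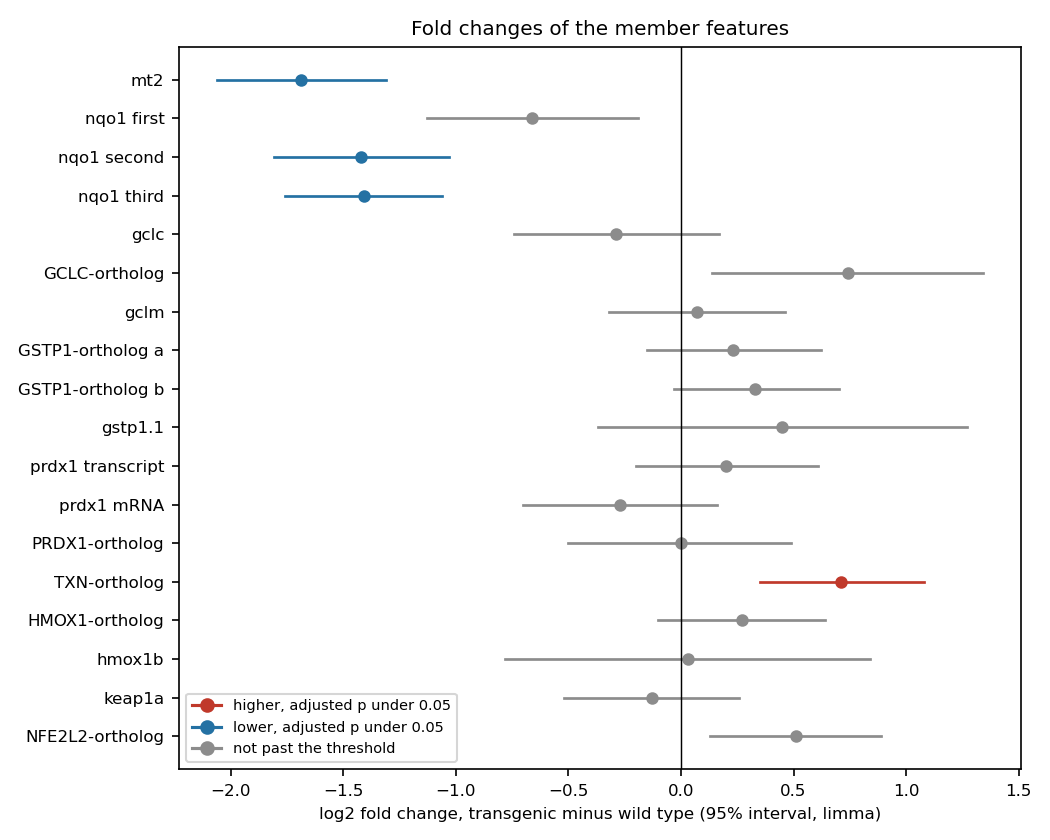
Log2 fold change of each of the 18 member features, transgenic minus wild type, on the x axis (points) with the 95% interval from limma (lines, not adjusted for the number of features), 2 arrays per genotype. The mt2 feature and the second and the third nqo1 features lie between -1.69 and -1.41, the TXN-ortholog feature at 0.71, and the features in grey did not pass an adjusted p of 0.05.

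The arrays of a genotype resembled each other more than those of the other genotype, with Pearson's r across features (which are not independent replicates) of 0.996 for the transgenic pair, 0.988 for the wild-type pair and 0.966 to 0.973 for arrays of different genotype. Array medians were 9.62 and 9.61 in the transgenic arrays, against 9.50 and 9.55 in the wild-type arrays (log2 signal). Of 21 markers of tissues a whole embryo holds, 13 were measured by name, and 0 of them were called in either direction by limma. The fast muscle gene mylpfa, the embryonic globin gene hbae3 and the skin keratin gene krt4 had signals of 15.10 to 15.88 on every array, the neuronal markers were not matched by name, and the macrophage gene mpeg1.1 (6.80 and 7.13 in the transgenic arrays, against 7.61 and 7.30 in the wild-type arrays) and the liver gene fabp10a were near the lower quartile. The summed linear signal of the 4 epidermal markers was 17.10 to 17.12 (log2) in the transgenic arrays, against 17.28 to 17.34 in the wild-type arrays. That of the 3 blood markers was 17.04 to 17.17 in the transgenic arrays, against 16.94 to 16.96 in the wild-type arrays. The 3 muscle markers summed to 16.96 to 17.01 in the transgenic arrays, against 16.97 to 17.06 in the wild-type arrays. The sums of the genotypes overlapped for muscle but not for epidermis or blood. The 2 liver and yolk markers summed to 15.32 to 15.44 in the transgenic arrays, against 14.53 to 15.09 in the wild-type arrays, also without overlap. Nearly all of that sum was the apolipoprotein gene apobb.1, which did not pass in limma (log2 fold change 0.57 ± 0.23, SE, adjusted p = 0.145). Its signals were 15.44 and 15.31 in the transgenic arrays, against 14.52 and 15.09 in the wild-type arrays. Such a lack of overlap is common, since 34.4% of all features had both transgenic arrays above both wild-type arrays and 33.1% both below. The part of these tissue signals in the results below was not tested.

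The metallothionein gene mt2 had the largest difference of the 18 features. Its log2 signal was 9.69 and 9.68 in the transgenic arrays, against 11.46 and 11.29 in the wild-type arrays. The groups do not overlap, and the gap between them is wide beside the spread within either genotype (SD 0.00954 and 0.122, n = 2 each). The log2 fold change of -1.69 had a 95% interval of -2.06 to -1.31 and an adjusted p of 0.00934 (limma). Only 1 feature of the array was named mt2, so the value rests on a single feature. As whole embryos were measured, fewer cells of a type and less RNA per cell cannot be told apart for mt2 or any gene below.

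The genes closest to mt2 in pattern, taken as the smallest root mean square distance of mean-centred log2 values over the 4 arrays, were the claudin gene cldn30 (distance 0.021) and the genes si:ch211-234g24.2 (0.0211) and si:ch211-214d15.1 (0.0369), for neither of which the file gives a function. The signal of cldn30 was 8.43 and 8.45 in the transgenic arrays, against 10.26 and 10.07 in the wild-type arrays. With 4 arrays, this likeness describes little beyond the difference between the genotypes.

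The nqo1 gene encodes a reductase that reduces quinones by a pair of electrons at once, and it is a widely used readout of NRF2 activity. The array carries 3 features named nqo1, called the first, the second and the third here in the order of their identifiers. The second had 12.07 and 11.92 in the transgenic arrays, against 13.48 and 13.35 in the wild-type arrays. The third had 11.95 on both transgenic arrays, against 13.38 and 13.34 on the wild-type arrays. Both features separate the genotypes fully, by 2.68-fold and 2.65-fold (adjusted p = 0.0112 and 0.0103, limma).

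The first nqo1 feature had 12.11 and 11.75 in the transgenic arrays, against 12.65 and 12.53 in the wild-type arrays. Its transgenic arrays were also below both wild-type arrays, but they lay further apart from each other (SD 0.257), and the log2 fold change of -0.66 (95% interval -1.13 to -0.19) did not pass (adjusted p = 0.0682, limma). With each array centred on its median the value was -0.75 and passed (adjusted p = 0.0492).

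The estimates of the nqo1 features were therefore of unequal size within the same arrays. The second feature exceeded the first by -0.04 and 0.17 (log2) in the transgenic arrays, against 0.83 and 0.82 in the wild-type arrays, a difference in this ratio of -0.76. The exact permutation test over the 4 arrays gave a two-sided p of 0.333, which is the smallest that 2 arrays per genotype allow. It therefore cannot decide whether the changes differ in size. The second and the third features differed from each other by at most 0.12 on any array. The files do not say which parts of the nqo1 transcripts the features cover.

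**Figure D2:**
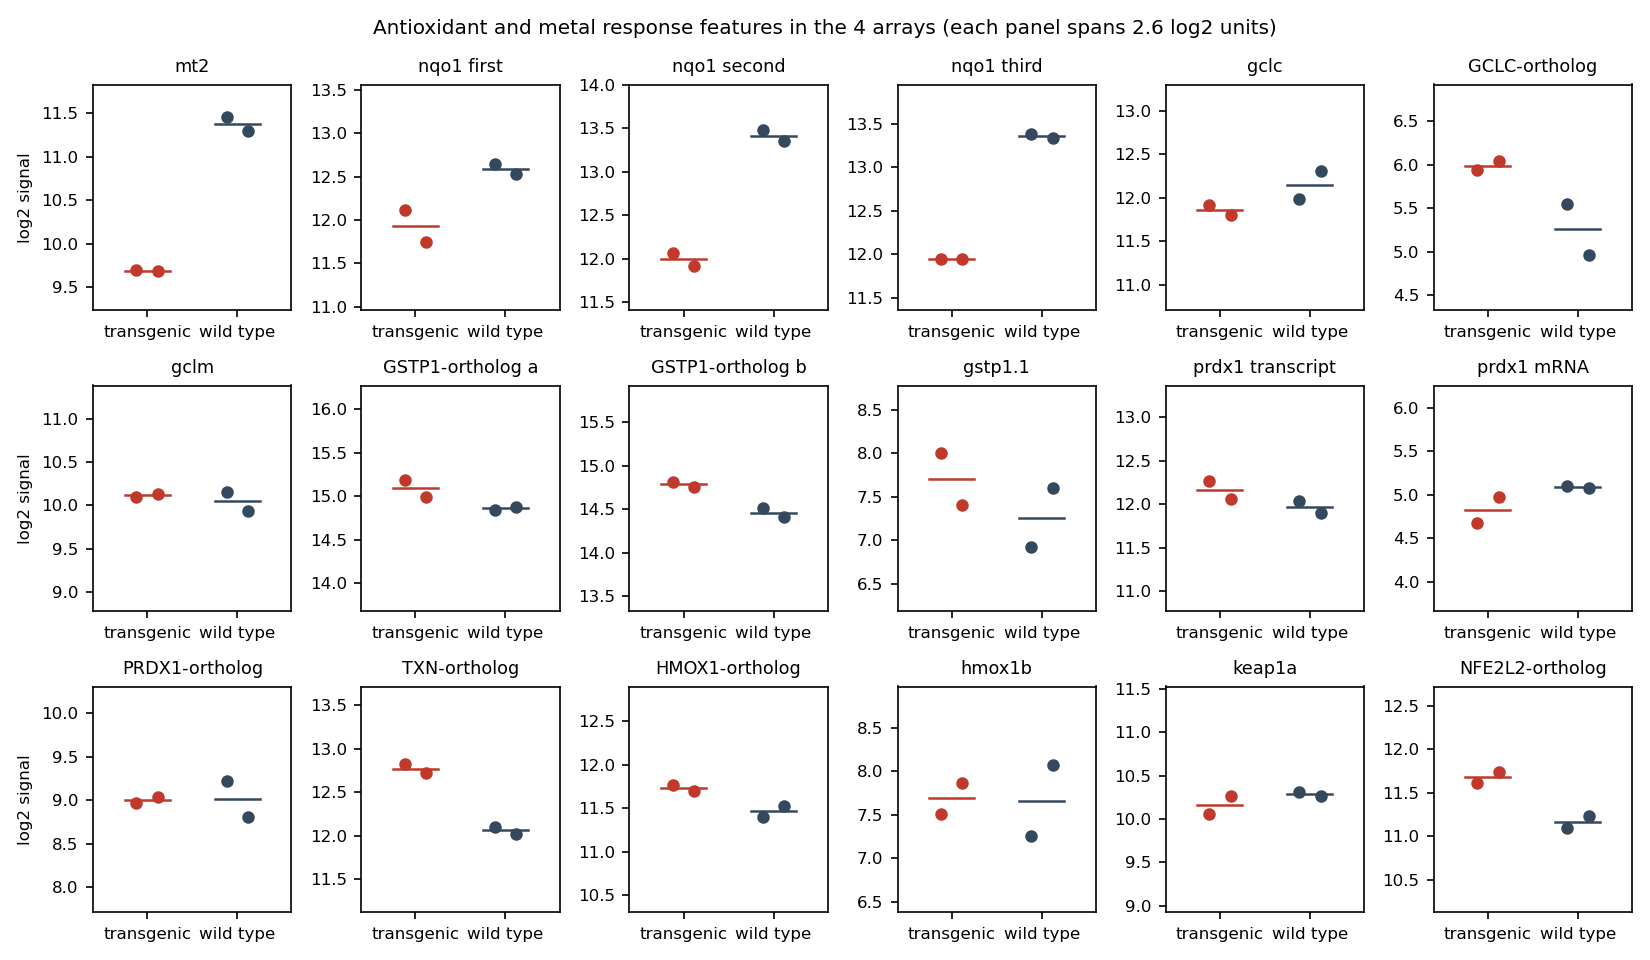
Log2 signal (y axis) of the 18 member features on the transgenic arrays (red, left) and the wild-type arrays (dark, right), with each point an array and each bar the mean of 2 arrays; every panel spans the same range of log2 units, but levels are not comparable between features. The mt2 panel and the second and the third nqo1 panels show both transgenic arrays well below both wild-type arrays, whereas gclm, gstp1.1, PRDX1-ortholog and hmox1b overlap.

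The member features of the regulators NFE2L2 and keap1a showed smaller differences than those of mt2 and nqo1. The feature with the human name NFE2L2 had 11.62 and 11.74 in the transgenic arrays, against 11.10 and 11.24 in the wild-type arrays. Both transgenic arrays were above both wild-type arrays, and the log2 fold change was 0.51 ± 0.15 (1.43-fold, 95% interval 0.13 to 0.89). It did not pass after adjustment (adjusted p = 0.0742, limma), and passed in 5 of 12 alternatives, among them the removal of dim features (adjusted p = 0.0461).

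The keap1a gene encodes the inhibitor that holds NRF2 in the cytoplasm. Its signal was 10.06 and 10.26 in the transgenic arrays, against 10.31 and 10.27 in the wild-type arrays. The nearer pair of arrays from the 2 genotypes almost touch, and the log2 fold change was -0.13 with a 95% interval of -0.52 to 0.26 (adjusted p = 0.57, limma). Leaving out a transgenic array gave -0.03 and -0.23.

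GCLC and GCLM are the catalytic and modifier subunits of glutamate-cysteine ligase, the rate-limiting enzyme of glutathione synthesis and both classic NRF2 targets. The gclc feature had 11.92 and 11.80 in the transgenic arrays, against 11.98 and 12.31 in the wild-type arrays, a log2 fold change of -0.29 (95% interval -0.74 to 0.17), which was -0.45 without wild-type replicate 1 and -0.12 without wild-type replicate 2. The gclm feature had 10.10 and 10.13 in the transgenic arrays, against 10.15 and 9.94 in the wild-type arrays. The gclm groups overlap, and the difference of 0.07 (95% interval -0.32 to 0.46) changed sign to -0.02 when arrays were quantile normalized or centred on their medians. Neither subunit passed (adjusted p = 0.295 and 0.771, limma). These intervals, not adjusted for the number of features, lie above the estimates of mt2 (-1.69) and of the second nqo1 feature (-1.42). The gclc interval includes the -0.66 of the first nqo1 feature. The gclm interval does not, but it overlaps that feature's own 95% interval of -1.13 to -0.19. No difference of gclc or gclm from the mt2 and nqo1 features was tested.

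A second feature with the human name GCLC but no symbol had 5.94 and 6.04 in the transgenic arrays, against 5.55 and 4.96 in the wild-type arrays. It went the other way from the gclc feature (0.74 ± 0.23, adjusted p = 0.0895, limma), but all 4 values lie below the lower quartile of the arrays, which was 7.05 at its lowest, and signal that low cannot be separated from background in these files. Its log2 fold change was 1.04 and passed without wild-type replicate 1 (adjusted p = 0.0162), was 0.45 without wild-type replicate 2 and was 0.36 on log2(value + 50).

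GSTP1 is a glutathione S-transferase of the pi class, which couples glutathione to electrophiles. Of 3 features with this human name, the first had 15.19 and 14.99 in the transgenic arrays, against 14.84 and 14.88 in the wild-type arrays. The second had 14.82 and 14.76 in the transgenic arrays, against 14.51 and 14.41 in the wild-type arrays. In both features the transgenic arrays were higher, by 0.23 and 0.33 on the log2 scale, and neither passed (adjusted p = 0.312 and 0.158, limma). The highest value of any feature was 16.04, so these signals lie close to the top of the scale.

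The third GSTP1 feature was matched by accession to gstp1.1. It had 8.0 and 7.41 in the transgenic arrays, against 6.92 and 7.60 in the wild-type arrays. The groups overlap, the arrays of each genotype lie further apart than the group means do (0.45 ± 0.32, adjusted p = 0.354, limma), and leaving out an array gave 0.11 to 0.79. The pi class genes gstp1.1 and gstp1.2 are close copies, and which of them the first and second features measure is not settled.

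Peroxiredoxin 1 removes hydrogen peroxide with thioredoxin as its electron donor. The prdx1 feature listed under an older clone name had 12.27 and 12.06 in the transgenic arrays, against 12.03 and 11.90 in the wild-type arrays, and differed by 0.20 (95% interval -0.20 to 0.61). A feature of the prdx1 reference mRNA had 4.67 and 4.98 in the transgenic arrays, against 5.10 and 5.08 in the wild-type arrays, below the lower quartile. A feature with the human name PRDX1 and no symbol had 8.97 and 9.04 in the transgenic arrays, against 9.22 and 8.80 in the wild-type arrays, and its log2 fold change of -0.00 became 0.21 without wild-type replicate 1. None of the 3 passed (adjusted p = 0.391, 0.301 and 0.99, limma), and their estimates did not share a sign.

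Thioredoxin is the small protein that hands electrons to peroxiredoxins and ribonucleotide reductase, and its human gene TXN is an NRF2 target. The feature with this human name had 12.82 and 12.72 in the transgenic arrays, against 12.10 and 12.02 in the wild-type arrays. The TXN-ortholog groups are apart, with SDs of 0.0751 and 0.0611 (n = 2 each), and the rise of 0.71 (95% interval 0.35 to 1.08) passed with an adjusted p of 0.035 (limma). It is the only member feature called higher, in an array where 10.3% of features were.

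Heme oxygenase 1 degrades heme to biliverdin, iron and carbon monoxide, and in many vertebrate cells its gene responds to oxidants, metals and heat. A feature with the human name HMOX1 and no symbol had 11.77 and 11.70 in the transgenic arrays, against 11.40 and 11.53 in the wild-type arrays. The transgenic arrays were higher by 0.27 (95% interval -0.10 to 0.64), which did not pass (adjusted p = 0.232, limma). The feature matched by accession to hmox1b had 7.51 and 7.87 in the transgenic arrays, which lie between the 7.26 and 8.07 of the wild-type arrays (0.03, adjusted p = 0.957), and the sign of this difference turned to -0.06 under quantile normalization and median centring.

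Counting overlap alone, 7 of the 18 features had both transgenic arrays above both wild-type arrays, 7 had both below, and 4 overlapped. Over all features 34.4% had both transgenic arrays above and 33.1% both below, so the members' counts are near the background. The authors' deposited table gives a q-value under 0.05 to 13 of the 18 features, 8 higher and 5 lower, where it does so for 67.7% of all features, 34.9% higher and 32.7% lower. The fold changes of that table are the same differences of group means, and its q-values call far more features than limma does.

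**Figure D3:**
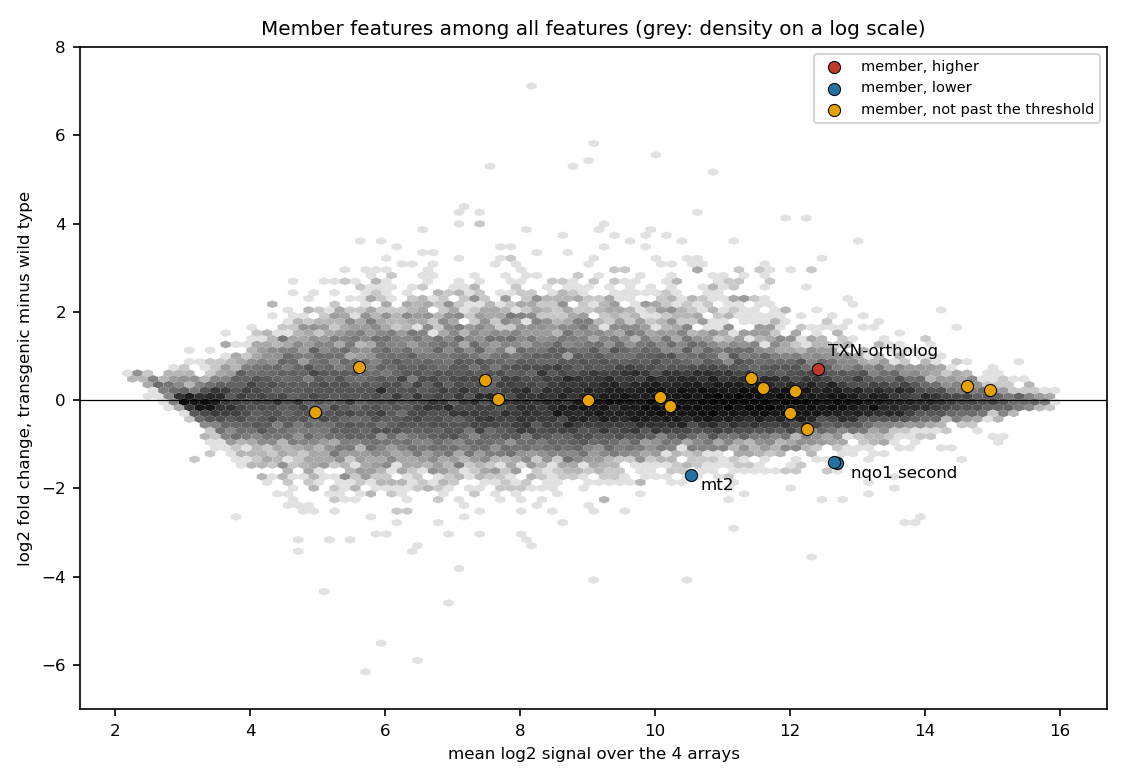
Log2 fold change, transgenic minus wild type (y axis), against the mean log2 signal over the 4 arrays (x axis); grey cells show the density of all 37176 features and coloured points the 18 members. The mt2 point and the points of the second and the third nqo1 features lie toward the lower side of features of similar brightness, the TXN-ortholog point at 0.71 lies within the upper part of the cloud, and most members sit near 0.

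The surrounding pathway was described with 8 lists of genes, each gene by its feature with the highest mean signal. In gsr, tkta, akr1a1b and slc31a1 that feature did not pass, while 1 dimmer feature of each gene was called lower. Of 150 listed genes that are not members, 95 were measured by name, of which 6 were higher, 10 were lower and 79 did not pass, or 6.32% and 10.5%. The split was 5 higher and 14 lower under quantile normalization and 5 higher and 15 lower under median centring. The calls over all 37176 features moved the same way, from 3830 higher and 2708 lower in the main fit. They were 3403 higher and 3440 lower under quantile normalization and 3316 higher and 3630 lower under median centring. In the main fit, over the brightest feature of each of 14868 named genes, 10.3% were higher and 7.48% lower. The median log2 fold change of the 95 genes was -0.14, beside 0.01 over all named genes.

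Among the NRF2 regulators, 1 of 9 measured genes rose and 0 fell. The small MAF gene mafk, whose product pairs with NRF2 and with the repressors BACH1 and BACH2, had 10.06 and 9.95 in the transgenic arrays, against 9.05 and 9.15 in the wild-type arrays. The mafk groups are well apart, and the log2 fold change was 0.91 ± 0.14 (1.88-fold, adjusted p = 0.022, limma). The other 8, nfe2l1a, nfe2l3, mafga, mafgb, maff, bach1a, bach1b and bach2a, had log2 fold changes between -0.70 and 0.39 and did not pass. The paralogs nfe2l2b and keap1b were not matched by name.

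Glutathione genes were described in separate lists for synthesis, supply and recycling and for the S-transferases. Of 10 measured genes of glutathione synthesis, supply and recycling, ggt1b, a gamma-glutamyltransferase gene, fell by 0.86 ± 0.15 (adjusted p = 0.0264, limma) and 0 rose. Its signal was 8.51 and 8.70 in the transgenic arrays, against 9.50 and 9.43 in the wild-type arrays. The glutathione reductase gene gsr had features that did not behave alike, since its brighter one differed by 0.06 while its dimmer one fell by 0.91 (adjusted p = 0.044). Of 10 further glutathione S-transferase genes, 1 rose, the microsomal gene mgst2 (0.70 ± 0.14, adjusted p = 0.0364), with 12.94 and 12.80 in the transgenic arrays, against 12.20 and 12.14 in the wild-type arrays. Its dimmer feature differed by 0.23 and did not pass.

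In the thioredoxin and peroxiredoxin list, 1 of 11 measured genes fell and 0 rose. It was prdx3, which encodes the mitochondrial peroxiredoxin, with 11.66 and 11.47 in the transgenic arrays, against 12.41 and 12.37 in the wild-type arrays (log2 fold change -0.82 ± 0.15, adjusted p = 0.029, limma). Both features of prdx3 fell. The mitochondrial prdx3 and the TXN-ortholog feature thus moved in opposite directions. The thioredoxin gene txn2 of this list, chosen after its value was seen, differed by -0.61 without passing (adjusted p = 0.0716, limma). Log2 fold changes of the measured genes of this list ran from -0.82 to 0.50, with a median of -0.14.

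Among 10 genes of superoxide and peroxide removal and methionine repair, 3 fell and 1 rose, where 7.48% of all named genes fell and 10.3% rose. The list median of -0.52 was the lowest of the 8 lists, which was seen only on comparing them all. The falls were in gpx1b, a glutathione peroxidase gene (-1.36 ± 0.14, adjusted p = 0.0111), in msraa, a methionine sulfoxide reductase gene (-1.12 ± 0.18, adjusted p = 0.0236), and in gpx7, a peroxidase gene of the endoplasmic reticulum (-0.91 ± 0.14, adjusted p = 0.0227, all limma). The rise was in msrb2, another methionine sulfoxide reductase gene, whose features both rose and whose brighter feature had 10.03 and 9.75 in the transgenic arrays, against 8.64 and 8.87 in the wild-type arrays (log2 fold change 1.13 ± 0.18). The gpx1b signal, 5.0 and 5.03 in the transgenic arrays, against 6.44 and 6.32 in the wild-type arrays, lies below the lower quartile, and the difference was -0.69 on log2(value + 50). The superoxide dismutase genes sod1, sod2 and sod3a differed by -0.56, -0.68 and -0.13 without passing.

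Of 11 further genes of quinone and carbonyl reduction and NADPH supply, 2 fell and 0 rose. The carbonyl reductase gene cbr1 had 4.80 and 5.57 in the transgenic arrays, against 7.08 and 7.23 in the wild-type arrays (log2 fold change -1.97 ± 0.29, adjusted p = 0.0192, limma). Both cbr1 features fell, but their transgenic signal lies below the lower quartile, and a close copy of the gene exists. The cbr1 value was -1.14 on log2(value + 50), and -1.58 and -2.36 without transgenic replicate 1 and 2. The epoxide hydrolase gene ephx1 had 10.33 and 10.30 in the transgenic arrays, against 11.38 and 11.29 in the wild-type arrays (log2 fold change -1.02 ± 0.14, adjusted p = 0.017), and 2 of its 3 features passed.

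Among 15 genes of heme and iron handling, hmox2a, which encodes the largely constitutive heme oxygenase 2, rose by 0.66 ± 0.14 (adjusted p = 0.0409, limma), and fth1b, a ferritin heavy chain gene, fell by 0.74 ± 0.15 (adjusted p = 0.0346). The hmox2a signal was 9.60 and 9.71 in the transgenic arrays, against 8.94 and 9.04 in the wild-type arrays. Its call ended under quantile normalization (0.57, adjusted p = 0.0537), under median centring (0.57, adjusted p = 0.0557) and without wild-type replicate 1 (0.61, adjusted p = 0.0515). The fth1b signal was 10.68 and 10.86 in the transgenic arrays, against 11.53 and 11.49 in the wild-type arrays, and both of its features fell.

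Of 19 further genes of zinc and copper handling, 2 rose and 2 fell. The zinc exporter gene slc30a1b, whose mammalian counterpart is induced by zinc through MTF1 as metallothionein genes are, had 9.99 and 9.90 in the transgenic arrays, against 11.05 and 11.04 in the wild-type arrays. It fell with mt2, by 1.1 ± 0.14 (2.14-fold, adjusted p = 0.0152, limma), whereas its paralog slc30a1a differed by 0.49 without passing (adjusted p = 0.0888). The gene of the metal-sensing factor mtf1 had 9.53 and 9.36 in the transgenic arrays, against 8.58 and 9.35 in the wild-type arrays, and the difference of 0.48 ± 0.29 did not pass (adjusted p = 0.282). It was 0.09 without wild-type replicate 1, the lower array, and 0.87 without wild-type replicate 2 (adjusted p = 0.0198).

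The other calls of that list were in zinc importer genes of the slc39 family. The brightest feature of slc39a14 had 9.70 and 9.61 in the transgenic arrays, against 8.43 and 8.48 in the wild-type arrays (log2 fold change 1.2 ± 0.14, adjusted p = 0.0129, limma), but its other features gave 0.83 and -0.45 and did not pass. The slc39a3 gene rose by 0.95 ± 0.20 (adjusted p = 0.0391) and slc39a8 fell by 1.07 ± 0.22 (adjusted p = 0.0362). The transgenic mean of slc39a8, 6.57, lies below the lower quartile.

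**Figure D4:**
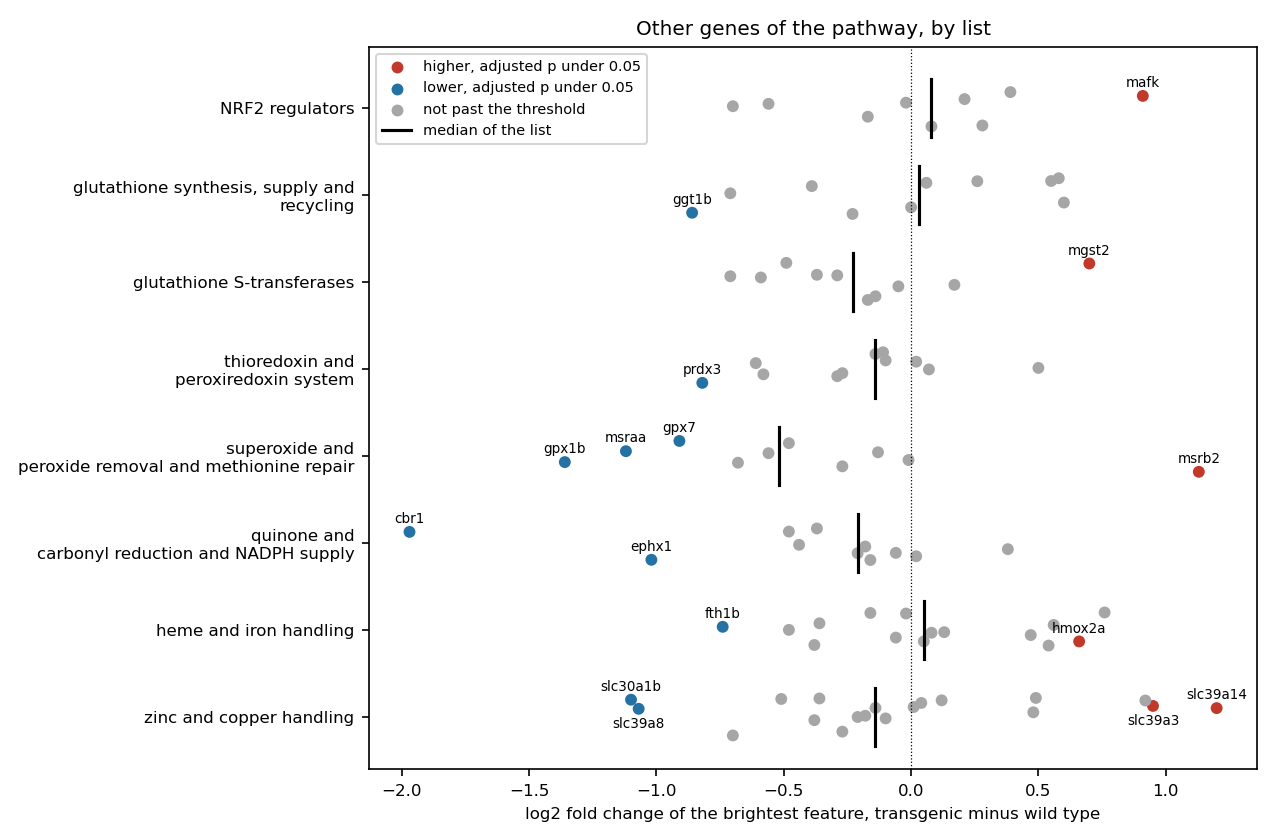
Log2 fold change, transgenic minus wild type (x axis), of the brightest feature of each of the 95 measured pathway genes that are not members, by list (y axis); red points were higher and blue points lower at an adjusted p of 0.05, grey points did not pass, and black bars are list medians. The 6 higher and 10 lower genes are named, and the superoxide, peroxide and methionine repair list has its median at -0.52.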

How the data were processed

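RNA of 4 arrays was compared, 2 transgenic and 2 wild type, grouped by the genotype in their labels. The authors deposited expression values per array feature, taken as log2 because their highest, 16.04, is close to the log2 limit of a 16-bit scanner; labelling was by Roche NimbleGen per the labels' protocols, and for summarisation, background correction and normalization the method was not given in the sources used here. A second deposited table, the authors' own comparison, gives a mean log2 fold change, which equals the difference of group means within 2.8e-08, and q-values, per the file headers, from a test not given in the sources used here. With no detection calls, slides or scan dates in the files, dim signal may be background and no batch was tested. The number of arrays limits the precision. The SEs, intervals and p-values from limma rest on the spread between these pools, moderated toward a variance shared over all features. They are therefore not the spread of a feature's own arrays alone.

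Features were named by the symbols of the table and by RefSeq mRNA accession (2663 of 3055 matched), updated through the gene names of RefSeq's GRCz12tu annotation, whose coordinates were not used. lmFit and eBayes of limma 3.58.1 (R 4.3.3) were run on all 37176 features with no covariate (2 residual and 2.92 prior degrees of freedom). Adjustment was by Benjamini-Hochberg over all features. The step was tested on simulated data, where the smaller changes were not recovered. Most of the larger ones, which exceeded the difference of any member, were missed as well. Far fewer features were changed there than were called here, so the share recovered need not hold for these data. A feature that did not pass is therefore not shown to be unchanged. All member features are described. From the lists, the genes past the threshold are named, up to 4 per list beside the members, with mtf1, nfe2l2b, keap1b and hmox1b. The genes gsr, txn2, tkta, akr1a1b, slc31a1, sod1, sod2, sod3a and slc30a1a were chosen after their values were seen. The members and lists were chosen with earlier results of these data known. The alternatives were quantile normalization, median centring, removal of features below the 25th percentile, eBayes with a trend or robust prior, log2(value + 50), the replicate number as a block, leaving out each array, the deposited q-values and, for the lists, averaging the features of each gene. No sequences are shown.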

Additional observations from a re-analysis of the deposited data

How the results depend on the processing

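Of the 18 member features, 1 was higher and 3 were lower. The lower count was 4 under median centring, after removing features below the 25th percentile and with an eBayes trend. In each of these settings the first nqo1 feature passed as well. The higher count was 2 after removing features below the 25th percentile, 3 with an eBayes trend, 2 on log2(value + 50) and 8 by the deposited q-values, which gave 5 lower; leaving out an array gave 0 to 2 higher and 0 to 3 lower. Of the 95 pathway genes, 6 were higher and 10 lower; the counts were 10 higher and 15 lower after removing dim features, 5 higher and 14 lower under quantile normalization, 5 higher and 15 lower under median centring, 6 higher and 14 lower when a gene's features were averaged, 10 higher and 20 lower with a trend, 16 lower on log2(value + 50), and 22 higher and 43 lower by the deposited q-values, while leaving out an array gave 0 to 14 higher and 0 to 17 lower. Every count of 0 came from leaving out either transgenic array, when 0 of 37176 features passed in limma, against 7482 and 7548 at an unadjusted p under 0.05; of the members, 0 higher and 4 lower, and 1 higher and 3 lower, had an unadjusted p under 0.05. In those fits the lone transgenic array is assumed to vary like the wild-type arrays. When a wild-type array was left out, the lone wild-type array was likewise assumed to vary like the transgenic arrays. Calls over all features then rose in both directions. A larger count in those fits is therefore not by itself a change in the members or the pathway genes. The log2 fold change of mt2 stayed between -1.78 and -1.60 over all alternatives, that of the second nqo1 feature between -1.51 and -1.34 and that of the TXN-ortholog feature between 0.62 and 0.76, each past the threshold in 10 of 12. Direction reversed only for small differences: gclm (0.07) was -0.02 under quantile normalization and median centring and -0.03 to 0.17 when an array was left out; PRDX1-ortholog (-0.00) was -0.22 to 0.21 when an array was left out; hmox1b was -0.06 under quantile normalization and median centring, and -0.38 to 0.43 when an array was left out. The cause of these changes was not tested. The titles share replicate numbers, and deviations of same-numbered arrays correlated at 0.206 across features, but nothing in the labels pairs them; with the replicate block the members' counts were 1 higher and 3 lower and the pathway counts 7 and 10. Median centring moved the median of all features to -0.09, against 0.01. The calls over all features also changed with the setting. They were 3830 higher and 2708 lower in the main fit and 5315 higher and 3976 lower with a trend. Quantile normalization gave 3403 and 3440, median centring 3316 and 3630, and log2(value + 50) 4023 and 3192. Among features left after removing dim ones they were 3916 and 3259, and by the deposited q-values 12981 and 12169.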
